A study of Mus musculus with 8 samples.

Results

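The 10 genes described here encode the ryanodine receptors Ryr1, Ryr2 and Ryr3 and proteins of the membrane junctions where these channels sit. The latter genes are Trdn, Asph, Jph1, Jph2, Sypl2, Bin1 and Tmem38a, of which Sypl2 is known from skeletal muscle. The 10 genes were chosen by symbol, and all 10 were found among the 55385 genes of the count table. The libraries were made from the left ventricle of male C57BL6 mice, with 4 libraries labelled Mst1-TG and 4 labelled WT. Mst1-TG mice express Mst1 from the cardiomyocyte-specific alpha-MHC promoter and develop dilated cardiomyopathy, while the controls are littermates without the transgene. The mice were 3 weeks old by the design text, whereas the RNA extraction protocol gives 3 months, and the age of these libraries is therefore uncertain. Stk4, the mouse gene for the Mst1 kinase, was at 25.2 to 29.6 CPM (counts scaled to an equal library size by TMM, a trimmed mean over genes) in WT and at 1449 to 1747 in Mst1-TG, in the direction of the labels. The comparison addresses how transcripts of the calcium release unit differ between the ventricle with dilated cardiomyopathy and that of littermates.

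In a ventricular myocyte, depolarisation opens L-type calcium channels in the transverse tubule, and the entering calcium opens ryanodine receptors across a narrow cleft in the sarcoplasmic reticulum. Junctophilins bridge the cleft, triadin and junctin tie the receptor to calsequestrin inside the reticulum, TRIC-A carries counter-ions, and the membrane-bending protein BIN1 shapes the tubule. Skeletal muscle uses a related junction, the triad, with its own channel and partner isoforms, among them RYR1, junctophilin 1, calsequestrin 1 and the synaptophysin-like protein SYPL2 (mitsugumin 29).

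The 10 genes separated into 3 kinds. Sypl2 and Ryr3, both scarce in WT, rose in Mst1-TG, while Jph2 and Tmem38a, both abundant in WT, fell. Ryr2, Trdn, Asph, Jph1 and Bin1 did not pass the test, and Ryr1 was too scarce to be tested. The test was edgeR's quasi-likelihood F test with Benjamini-Hochberg adjustment over 15314 genes and a threshold of 0.05. Thus 4 of the 9 tested members were called, 2 in each direction, where 42.3% of all tested genes were called, 21.2% higher and 21.1% lower. The groups did not overlap for the same 4 members, against 40.3% of all tested genes. The share of called members was close to that of all genes. The median log2 fold change was -0.05 over the 9 tested members and 0.01 over all tested genes. In bulk tissue, fewer cells of a type and less RNA per cell cannot be told apart.

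**Figure D1:**
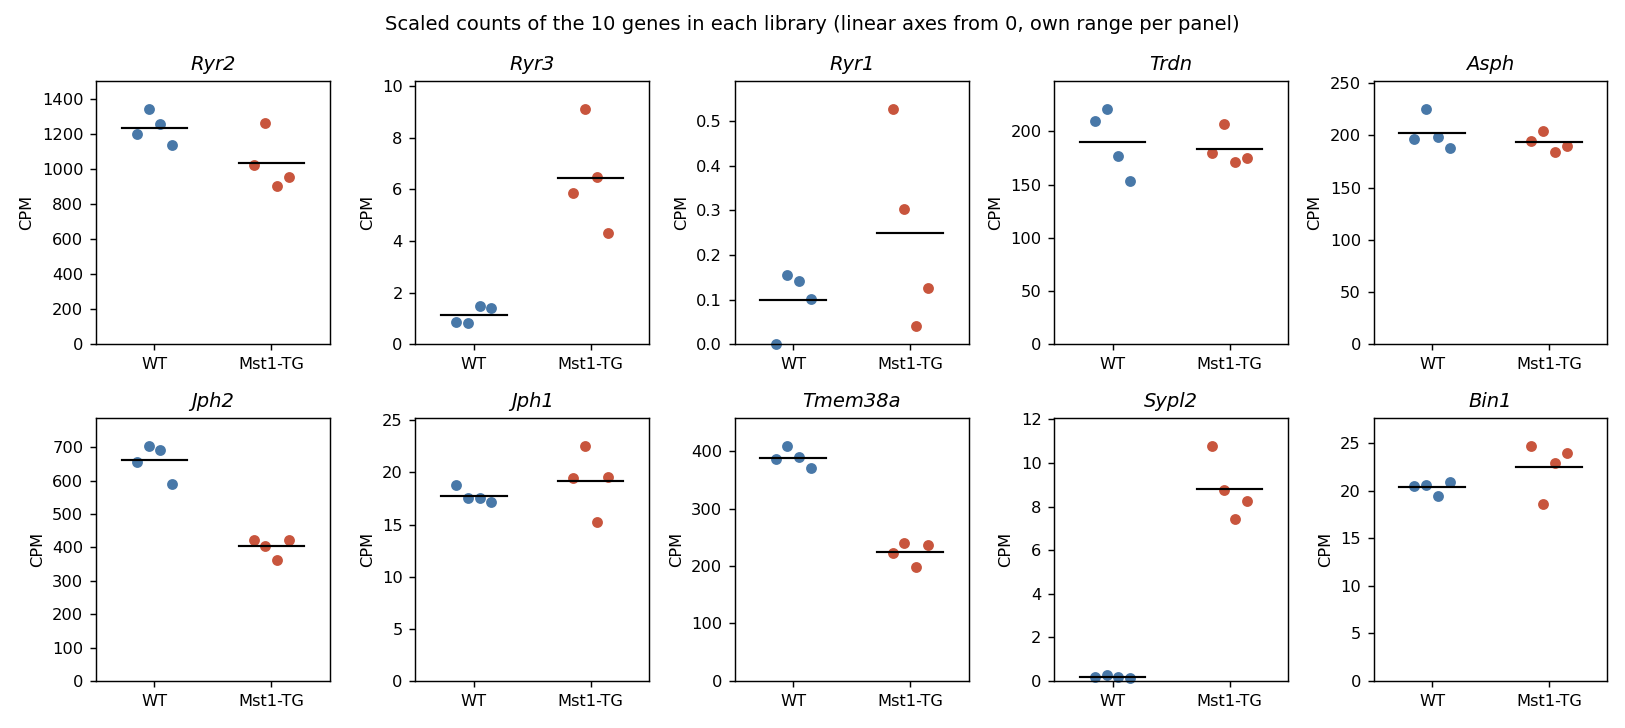
TMM-scaled CPM (y axis, linear from 0, own range in each panel) of the 10 genes in the 4 WT and 4 Mst1-TG libraries. Points are libraries and bars are group means; Ryr3 and Sypl2 lie higher and Jph2 and Tmem38a lower in every Mst1-TG library than in any WT library.

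For 3 of the 4 called members RefSeq (GRCm38.p6) gives the sequence before the transcription start, shown here so that the genes called in opposite directions can be set side by side. Each run is the 250 bases before the start, 5′ to 3′ on the gene's strand, with capitals marking matches to motifs searched on both strands: CANNTG (an E-box, bound by myogenic and other helix-loop-helix factors), GGAATG (bound by the TEAD partners of YAP), TATAAA and the MEF2 core.
Sypl2 (chr3:108226600-108226849, reverse strand): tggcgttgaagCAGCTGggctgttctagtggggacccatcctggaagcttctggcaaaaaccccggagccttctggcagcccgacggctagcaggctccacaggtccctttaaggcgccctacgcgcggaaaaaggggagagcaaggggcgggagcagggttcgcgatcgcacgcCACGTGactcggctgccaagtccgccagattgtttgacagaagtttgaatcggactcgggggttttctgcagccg
Jph2 (chr2:163397994-163398243, reverse strand): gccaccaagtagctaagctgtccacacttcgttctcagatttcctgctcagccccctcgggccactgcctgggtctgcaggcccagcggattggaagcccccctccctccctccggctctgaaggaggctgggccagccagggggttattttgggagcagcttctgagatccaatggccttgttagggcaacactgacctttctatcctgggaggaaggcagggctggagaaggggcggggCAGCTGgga
Tmem38a (chr8:72571573-72571822, forward strand): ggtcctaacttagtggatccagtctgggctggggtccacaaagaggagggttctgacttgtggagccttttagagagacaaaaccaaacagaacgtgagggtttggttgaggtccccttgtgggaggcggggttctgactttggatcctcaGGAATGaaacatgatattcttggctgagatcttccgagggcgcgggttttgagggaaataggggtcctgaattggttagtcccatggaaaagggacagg
Sypl2, the gene that rose, has E-box matches that begin at positions -239 and -75 from the start. Jph2 has an E-box match at -9, and Tmem38a has a GGAATG match at -99. A second RefSeq start of Jph2 puts the same match at -29. The window of Ryr2, which was not called, also holds E-box matches, at -102 and -66, and that of Ryr1 holds none. Of 32851 RefSeq windows of this length, 66.2% hold an E-box match, 12.6% a GGAATG match, 3.2% a MEF2 match and 12.4% a TATAAA match, so E-box matches are common in such windows. Neither a TATAAA nor a MEF2 match was found in the 3 windows shown. The RefSeq start of Tmem38a lies upstream of its GENCODE gene start, the Jph2 window abuts its GENCODE gene start, and the Sypl2 window reaches into its GENCODE gene.

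Levels between genes were compared as CPM per kilobase of the longest protein-coding transcript. In WT the order was Tmem38a (183 ± 7.4 CPM per kb, SD, n = 4), Jph2 (156.9 ± 12.1), Ryr2 (73.5 ± 5.12), Trdn (42.2 ± 6.82), Asph (30.2 ± 2.4), Bin1 (8.46 ± 0.252) and Jph1 (3.69 ± 0.147). Ryr3 (0.0737 ± 0.0226), Sypl2 (0.0482 ± 0.0109) and Ryr1 (0.00649 ± 0.00458) were far below these. Libraries of neighbouring genes in this order did not overlap, except those of Ryr3 and Sypl2. In Mst1-TG Sypl2 reached 2.15 ± 0.35 CPM per kb and stood above Ryr3 (0.417 ± 0.129), and the libraries of Tmem38a (105.7 ± 8.89) and Jph2 (95.6 ± 6.46) overlapped. The order of the abundant genes rests on the transcript length used: with the median length of the protein-coding transcripts, an alternative added after seeing the data, Tmem38a was at 258.6, Ryr2 at 251.0, Trdn at 174.9 and Jph2 at 157.9 CPM per kb in WT. Asph has 15 protein-coding transcripts in GENCODE M21, from 457 to 6694 bases, and Trdn has 7, from 356 to 4514 bases. Junctin, junctate and the aspartate hydroxylase all come from Asph, so its gene count is a sum over different proteins.

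Ryr2, the calcium release channel of heart muscle, lies on the reverse strand at chr13:11553102-12106945 (GRCm38, GENCODE M21). Its level was 1200, 1344, 1257 and 1142 CPM in WT 1 to 4 and 1023, 1265, 906 and 955 CPM in Mst1-TG 1 to 4. Of the transgenic libraries 3 lay below all WT libraries, and Mst1-TG 2 lay among them. The log2 fold change was -0.25 ± 0.10 (SE) with a 95% interval from -0.47 to -0.03, and the edgeR adjusted p of 0.065 did not pass. The call depended on 1 library and on the method. Without Mst1-TG 2 the log2 fold change was -0.36 (edgeR adjusted p = 0.0031), and Ryr2 also passed with DESeq2 (adjusted p = 0.044) and when scarce genes were kept (edgeR adjusted p = 0.009). With library totals as the only scaling its log2 fold change was 0.03 (adjusted p = 0.79). That scaling moved the median of all tested genes to 0.29 on the log2 scale, so that relative to the median gene Ryr2 was below it under both scalings.

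Ryr3, a ryanodine receptor isoform known from brain and from immature skeletal muscle, lies on the reverse strand at chr2:112631355-113217096. It had 18, 16, 31 and 28 counts in WT 1 to 4 and 145, 211, 159 and 103 counts in Mst1-TG 1 to 4, or 1.14 ± 0.35 and 6.44 ± 2.0 CPM (SD, n = 4 each). Every transgenic library lay above every WT library. Its rise was 2.49 ± 0.27 (SE) on the log2 scale, or 5.62-fold, with an edgeR adjusted p of 8.2e-06. Ryr1, the release channel of skeletal muscle, had 0, 3, 3 and 2 counts in WT 1 to 4 and 13, 7, 1 and 3 counts in Mst1-TG 1 to 4. The groups overlapped, Ryr1 did not pass the filter on low counts, and in WT 1 a count of 0 allows up to 0.142 CPM (3 counts). Over the summed libraries the ratio of Ryr1 counts was 2.54, with an exact 95% counting interval of 1.1 to 6.53 that does not cover differences between animals. Without a filter its log2 fold change was 1.29 ± 0.81 (SE) with an edgeR adjusted p of 0.3. Where reads are shared between the 3 related channels, these small counts depend on how kallisto divided them.

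Shares within the receptor family do not depend on library scaling. Ryr2 made up 99.9% ± 0.0338 of the summed ryanodine receptor counts in WT and 99.4% ± 0.126 in Mst1-TG (SD, n = 4 each). Ryr3 made up 0.0708%, 0.0615%, 0.117% and 0.123% in WT 1 to 4 and 0.571%, 0.715%, 0.710% and 0.449% in Mst1-TG 1 to 4. The groups did not overlap in either share (exact permutation test, two-sided p = 0.0286, adjusted p = 0.0476 over 15 ratios). This p is the smallest that 4 against 4 can give. Ryr2 thus remained nearly the whole of the receptor transcripts in both groups, with Ryr3 below 1% in all 8 libraries.

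Trdn encodes triadin, which anchors the receptor to calsequestrin. Its level was 210, 220.7, 177 and 153.5 CPM in WT 1 to 4 and 180, 207, 171 and 175 CPM in Mst1-TG 1 to 4. The transgenic libraries lay inside the WT range, and the log2 fold change of -0.05 ± 0.11 (SE) did not pass (edgeR adjusted p = 0.72, 95% interval -0.29 to 0.18). Asph, the gene of junctin, was at 196, 225, 199 and 188 CPM in WT 1 to 4 and 195, 204, 185 and 190 CPM in Mst1-TG 1 to 4. The libraries overlapped and the log2 fold change was -0.06 ± 0.07 (SE, edgeR adjusted p = 0.51, 95% interval -0.21 to 0.09). With library totals only, the values became 0.23 (adjusted p = 0.053) for Trdn and 0.22 (adjusted p = 0.01) for Asph. The log2 ratio to Ryr2 counts went from -2.71 ± 0.18 to -2.49 ± 0.09 for Trdn and from -2.61 ± 0.03 to -2.41 ± 0.15 for Asph (SD, n = 4 each). Neither ratio passed (exact permutation test, adjusted p = 0.129 and 0.156).

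Jph2, the junctophilin of heart muscle that spans the cleft, lies on the reverse strand at chr2:163336242-163397993. Its level was 655, 703.5, 692.5 and 591 CPM in WT 1 to 4 and 421, 404, 363 and 421 CPM in Mst1-TG 1 to 4. The highest transgenic library was well below the lowest WT library. Jph2 fell by 0.71 ± 0.08 (SE) on the log2 scale, a 1.64-fold lower level with an edgeR adjusted p of 9.2e-06. Jph1, its skeletal muscle relative, was at 18.79, 17.52, 17.55 and 17.18 CPM in WT 1 to 4 and 19.46, 22.54, 15.25 and 19.53 CPM in Mst1-TG 1 to 4. The transgenic libraries lay on both sides of the WT libraries, and the log2 fold change of 0.11 ± 0.11 (SE) did not pass (edgeR adjusted p = 0.44, 95% interval -0.12 to 0.34). With library totals only Jph1 was called higher (0.39, adjusted p = 0.0046) and Jph2 was still called lower (-0.43, adjusted p = 2.4e-04). Jph1 made up 2.63% ± 0.207 of the 2 genes' counts in WT and 4.54% ± 0.528 in Mst1-TG (SD, n = 4 each), without overlap between the groups (exact permutation test, p = 0.0286, adjusted p = 0.0476).

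Tmem38a encodes TRIC-A, a potassium channel of the sarcoplasmic reticulum that carries counter-ions during calcium release, and lies on the forward strand at chr8:72572055-72587282. Its level was 386, 409, 389 and 371 CPM in WT 1 to 4 and 222, 240.4, 199 and 237 CPM in Mst1-TG 1 to 4, with a wide gap between the groups. Tmem38a fell by 0.79 ± 0.07 (SE) on the log2 scale, 1.73-fold, with an edgeR adjusted p of 1.9e-06, and by 0.51 (adjusted p = 3.7e-05) with library totals only. Its widely expressed relative Tmem38b was at 24.1 ± 0.507 CPM in WT against 20.3 ± 1.18 in Mst1-TG and fell by 0.25 ± 0.07 (SE, edgeR adjusted p = 0.013), a call that was lost with library totals only (0.04, adjusted p = 0.69). Tmem38a made up 94.2% ± 0.323 of the counts of both genes in WT and 91.7% ± 0.833 in Mst1-TG (exact permutation test, p = 0.0286, adjusted p = 0.0476).

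Jph2 and Tmem38a also fell against the release channel itself. The log2 ratio of Jph2 to Ryr2 counts was -0.90 ± 0.04 in WT and -1.36 ± 0.20 in Mst1-TG, and that of Tmem38a to Ryr2 was -1.667 ± 0.04 and -2.2 ± 0.16 (SD, n = 4 each). In both ratios the groups did not overlap (exact permutation test, p = 0.0286, adjusted p = 0.0476). Mst1-TG 2, with the highest Ryr2 level of its group, had the lowest of each ratio. The ratio of Cacna1c, the pore of the L-type channel, to Ryr2 was -2.52 ± 0.08 in WT and -2.50 ± 0.13 in Mst1-TG and overlapped (adjusted p = 0.914). Jph2 against Cacna1c went from 1.61 ± 0.05 to 1.15 ± 0.30 (adjusted p = 0.0476). Of the 15 ratios and shares tested, 9 passed at this smallest attainable p. Their adjusted p of 0.0476 rests on how many ratios reached that p. The shares of Ryr2 and Ryr3 are nearly complements, and several ratios share Ryr2, so the 9 are not independent results.

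**Figure D2:**
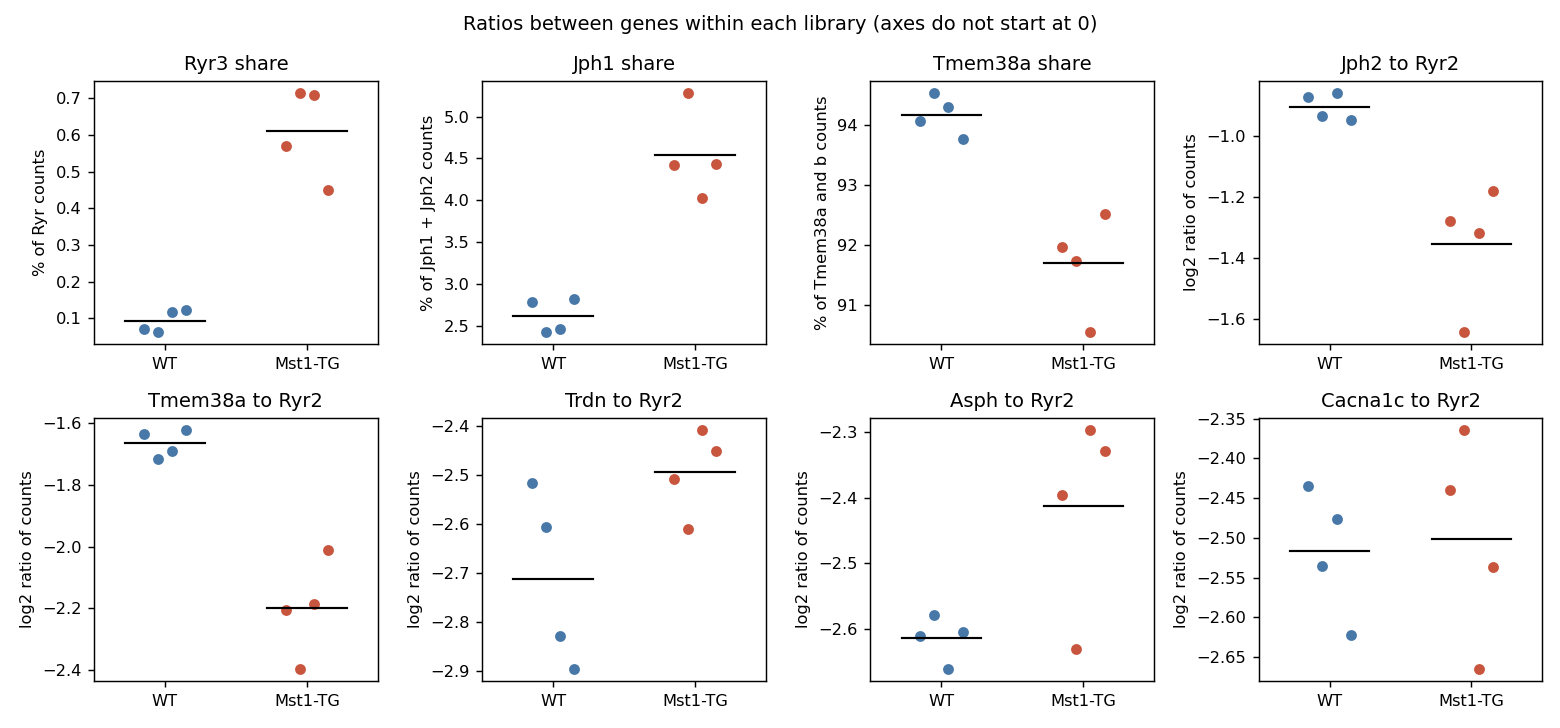
Shares of counts in percent (Ryr3, Jph1 and Tmem38a within their families) and log2 ratios of counts to Ryr2 (y axes, not from 0) in the 4 WT and 4 Mst1-TG libraries. Points are libraries and bars are group means; the groups are apart for Ryr3, Jph1, Tmem38a and for Jph2 and Tmem38a over Ryr2, and they overlap for Trdn, Asph and Cacna1c over Ryr2.

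Sypl2 encodes mitsugumin 29, a synaptophysin relative of the skeletal muscle triad membrane, and lies on the reverse strand at chr3:108211472-108226648. It had 4, 5, 4 and 3 counts in WT 1 to 4 and 266, 203, 182 and 197 counts in Mst1-TG 1 to 4, or 0.197 ± 0.0447 and 8.80 ± 1.43 CPM (SD, n = 4 each). It was the largest change among the tested members, at 5.44 ± 0.23 (SE) on the log2 scale with an edgeR adjusted p of 4.5e-09. The ratio of scaled counts was 44.8, with an exact 95% counting interval of 27.4 to 78.8 that rests on 16 WT counts. Its widely expressed relative Sypl was at 92.0 ± 3.79 CPM in WT against 92.6 ± 4.91 in Mst1-TG (0.01 ± 0.06, SE, edgeR adjusted p = 0.93), and was called higher with library totals only (0.29, adjusted p = 0.002). Even in Mst1-TG, Sypl2 counts were a small fraction of those of Ryr2, at a log2 ratio of -6.88 ± 0.25.

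Bin1, which tubulates membrane and organises the transverse tubule in muscle, was at 20.5, 20.6, 19.5 and 20.9 CPM in WT 1 to 4 and 24.7, 18.57, 22.91 and 23.96 CPM in Mst1-TG 1 to 4. Of the transgenic libraries 3 lay above all WT libraries and Mst1-TG 2 lay below them. The log2 fold change of 0.15 ± 0.09 (SE, 95% interval -0.05 to 0.34) did not pass (edgeR adjusted p = 0.22). It passed without Mst1-TG 2 (0.23, adjusted p = 0.028) and with library totals only (0.43, adjusted p = 0.0021). Bin1 has 5 protein-coding transcripts in GENCODE M21, and the gene count does not tell its muscle and other isoforms apart.

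**Figure D3:**
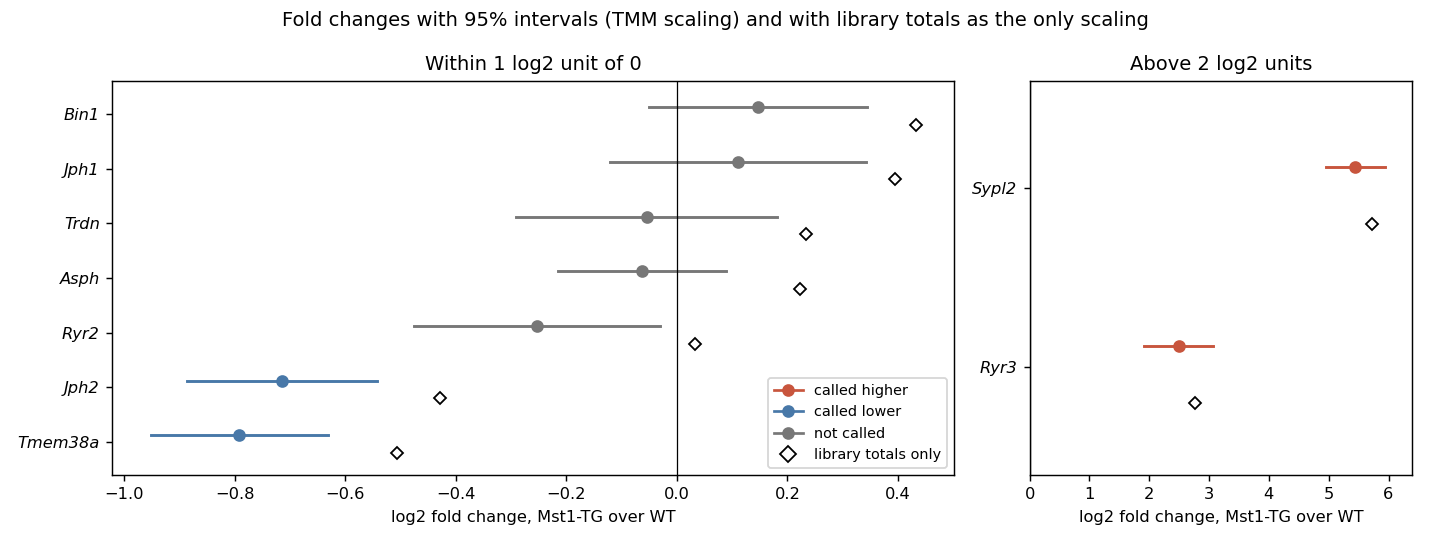
Log2 fold change of Mst1-TG over WT (x axis) for the 9 tested genes, with 95% intervals from edgeR under TMM scaling (filled points) and the value with library totals as the only scaling (open diamonds). Jph2, Tmem38a, Ryr3 and Sypl2 stay on 1 side of 0 under both scalings, whereas Ryr2, Trdn and Asph cross it.

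Libraries of 1 group moved together over several members. Mst1-TG 2 was the highest of its group for Ryr2, Ryr3, Trdn, Asph, Jph1 and Tmem38a, and Mst1-TG 3 the lowest for 8 of the 10 genes. In WT, library 2 was the highest for 7 genes and library 4 the lowest for 7. Over the 8 libraries the genes whose log2 CPM followed Ryr2 closely among 12607 genes included Parm1 (Pearson r = 0.9754), Mtor (0.967), Mybpc3 (0.966) and Clasp2 (0.964). Those nearest to Sypl2 were Gnao1, Dpysl3, Myom3, Shisa3 and Hspb7 (r from 0.9985 to 0.9997), each of which was called higher. These r values describe 8 libraries that fall into 2 groups, which for Sypl2 set nearly all of the spread.

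The other genes of the release unit moved in both directions. Over 5 lists of such genes, 63 of 64 matched a symbol of the table and 57 were tested, of which 14 rose, 18 fell and 25 did not pass, with a median log2 fold change of -0.03. Over all tested genes 42.3% were called, 21.2% higher and 21.1% lower, and the median was 0.01. With library totals only, 28 were called higher and 8 lower. Of 5 tested paralogues Tmem38b fell and the other 4 did not pass: the inositol trisphosphate receptors Itpr1, Itpr2 and Itpr3, calcium release channels of the endoplasmic reticulum, were at -0.11 ± 0.06, -0.08 ± 0.08 and -0.02 ± 0.13 (log2, SE), beside Sypl. Itpr1 was called higher with library totals only (0.17, adjusted p = 0.018), and the sign of Itpr2 and Itpr3 turned as well. The neuronal junctophilins Jph3 and Jph4 had 10 and 39 counts over the WT libraries and 10 and 32 over Mst1-TG, and were not tested.

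Among 19 partners of the release channel 6 rose, 7 fell and 6 did not pass (median 0.03), beside 21.2% higher and 21.1% lower among all tested genes. Calsequestrin 1 (Casq1), the calcium buffer of skeletal muscle, was at 16.5, 33.5, 19.8 and 29.9 CPM in WT 1 to 4 and 140, 64.0, 68.7 and 102 CPM in Mst1-TG 1 to 4. The libraries were spread widely but did not overlap, and Casq1 rose by 1.91 ± 0.34 (SE, edgeR adjusted p = 0.0037). Calsequestrin 2 (Casq2), the cardiac form, fell from 878.8 ± 67.8 to 657 ± 67.8 CPM (SD, n = 4 each) by 0.42 ± 0.09 on the log2 scale (adjusted p = 0.002), a call lost with library totals only (-0.14, adjusted p = 0.18). Jsrp1, the JP45 protein of the skeletal triad, had 21 counts over WT and 285 over Mst1-TG and rose by 3.49 ± 0.28 (edgeR adjusted p = 4.3e-07). In the reticulum lumen Hrc binds calcium and contacts triadin, and it fell by 1.83 ± 0.14, the phosphodiesterase Pde4d by 0.82 ± 0.10, Cmya5, which tethers the dyad at the Z-line, by 0.56 ± 0.09, and the kinase subunit Prkaca by 0.43 ± 0.08. The Prkaca call was lost with library totals only (-0.14, adjusted p = 0.091). Fkbp1b, the FK506-binding protein that sits on RYR2, was scarce (0.828 ± 0.228 and 1.06 ± 0.177 CPM) and did not pass (0.35 ± 0.29, edgeR adjusted p = 0.36).

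Of 10 tested genes of the plasma membrane calcium channel 4 rose, 2 fell and 4 did not pass (median 0.05). Among all tested genes 21.2% were called higher and 21.1% lower. Cacna1c, the cardiac pore, was at 216 ± 20.97 CPM in WT against 185 ± 44.3 in Mst1-TG and did not pass (-0.22 ± 0.15, SE, edgeR adjusted p = 0.26). It was called lower without Mst1-TG 2 (-0.39, adjusted p = 0.0096) and when scarce genes were kept (edgeR adjusted p = 0.047), and its sign turned with library totals only (0.06). Cacna1s, the skeletal pore, was at 2.60 ± 0.167 and 1.56 ± 0.409 CPM and fell by 0.74 ± 0.22 (edgeR adjusted p = 0.016), which did not hold with library totals only (adjusted p = 0.084). The auxiliary subunit Cacnb1, whose main muscle form belongs to the skeletal channel, rose from 6.58 ± 0.334 to 21.8 ± 3.0 CPM (1.73 ± 0.11, adjusted p = 7.9e-08), and Cacnb3 rose by 1.02 ± 0.11. Cacnb2, the usual cardiac beta subunit, fell by 0.62 ± 0.16 with overlapping libraries (adjusted p = 0.011; 0.062 with library totals only). Rrad, a GTPase that restrains the L-type channel, rose by 0.85 ± 0.15.

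Of 7 tested genes of calcium removal 3 fell, 1 rose and 3 did not pass (median -0.06). The shares over all tested genes, for this list and the next, were 21.2% higher and 21.1% lower. The calcium pump Atp2a2 fell by 1.02 ± 0.11 (SE) and its inhibitor Pln by 0.85 ± 0.10 on the log2 scale. The ratio of Atp2a2 to Ryr2 counts went from 2.969 ± 0.04 to 2.202 ± 0.13 on the log2 scale without overlap (exact permutation test, adjusted p = 0.0476). Sln fell by 1.28 ± 0.35 and was not called without Mst1-TG 3 (-1.28, edgeR adjusted p = 0.052) or when scarce genes were kept (-1.27, edgeR adjusted p = 0.059). Atp2b1, a plasma membrane pump, rose by 0.22 ± 0.07 (adjusted p = 0.021) and lost its call without Mst1-TG 1, WT 3 or WT 4 (0.17, 0.20 and 0.19). Atp2a1, the skeletal muscle pump, had 35 counts over WT and 19 over Mst1-TG and was not tested. Of 16 genes of the transverse tubule and membrane shaping 3 rose, 5 fell and 8 did not pass (median -0.04). Popdc2 fell by 0.62 ± 0.07, Ehd1 by 0.54 ± 0.07 and caveolin 3 (Cav3) by 0.45 ± 0.07, and the Cav3 call was lost with library totals only (-0.16, adjusted p = 0.072). Xirp1, which binds actin at cell junctions of the heart, rose by 1.01 ± 0.14, and the membrane repair protein Myof by 0.88 ± 0.12.

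**Figure D4:**
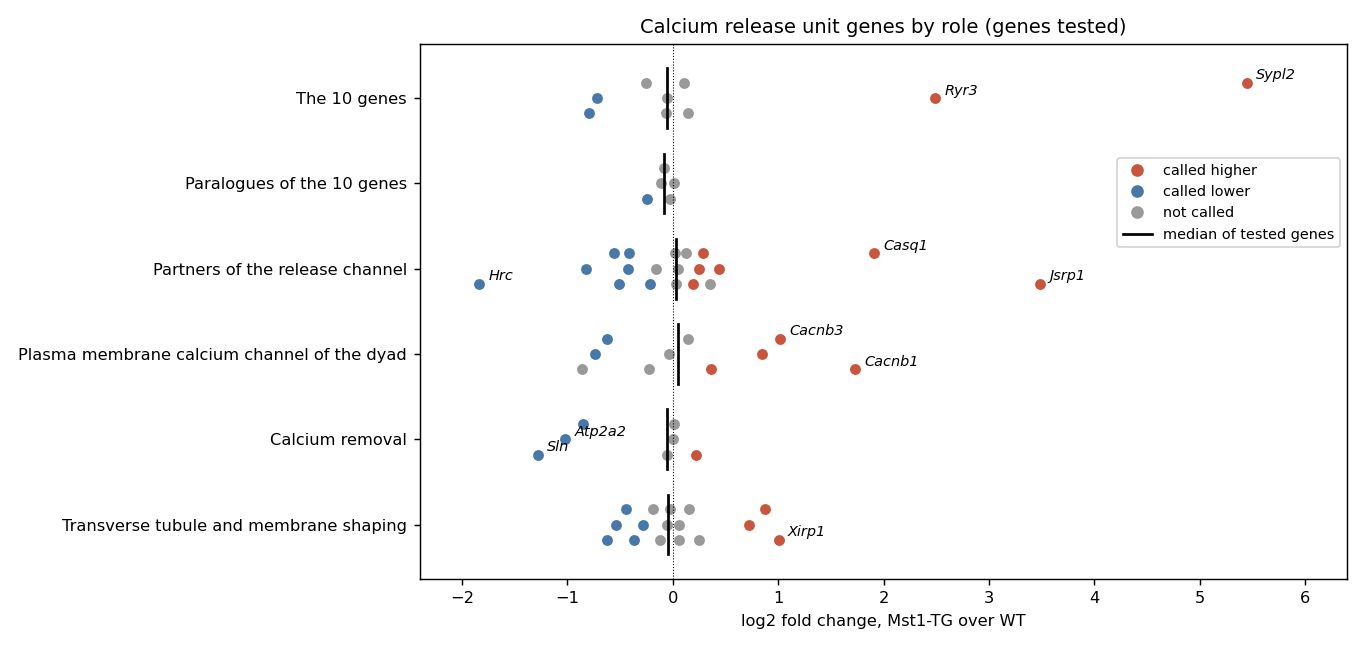
Log2 fold change of Mst1-TG over WT (x axis) for the tested genes of each list (rows), coloured by the edgeR call at an adjusted p of 0.05. Black bars are list medians, between -0.08 and 0.05, and genes beyond 1 log2 unit are named.

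Markers of skeletal muscle and of neurons are given beside the rises of Sypl2 and Ryr3. Their counts stand beside 21.2% called higher and 21.1% called lower among all tested genes. Of 17 skeletal muscle markers 11 were tested, of which 5 rose and 4 fell, and their summed level was 2139 to 2580 CPM in WT against 754.5 to 1050 in Mst1-TG. Most of that sum is the creatine kinase Ckm, which the heart also expresses, at 2220 ± 204 CPM in WT against 759.6 ± 103.8 in Mst1-TG. Casq1 and Cacna1s belong to this list as well. Myh4, a fast skeletal myosin, had 0 counts in all 8 libraries, Myh1 had 2 counts over WT and 22 over Mst1-TG, Myh2 had 7 and 9, and Tnnc2 had 1 and 3. Its troponins moved in both directions: the slow Tnni1 rose by 3.14 ± 0.20 and the fast Tnnt3 by 2.77 ± 0.34 on the log2 scale, while the fast Tnni2 fell by 1.75 ± 0.34 and the slow Tnnt1 by 0.43 ± 0.11. Of 8 markers of neurons and glia 5 were tested, Tubb3 and Uchl1 rose, and the summed level was 22.1 to 26.6 CPM in WT against 103 to 119 in Mst1-TG. The part of both marker lists in the rises of Sypl2 and Ryr3 was not tested.

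Markers of other cell types differed beside the falls of Jph2 and Tmem38a. Among all tested genes 21.2% were called higher and 21.1% lower. All 8 fibroblast markers rose (summed level 2580 to 3437 CPM in WT against 6187 to 8613 in Mst1-TG). Of 8 cardiomyocyte markers 5 fell and 3 did not pass (40130 to 48760 and 27980 to 37370 CPM). Those that fell were Tnni3 (-1.33 ± 0.09, log2, SE), Myl3 (-0.92 ± 0.08), Myl2 (-0.90 ± 0.09), Tnnt2 (-0.42 ± 0.10) and Myh6 (-0.40 ± 0.12). Actn2 (-0.08 ± 0.09) and Ttn (0.07 ± 0.13) were among those that did not pass, and Ryr2, itself a marker, was the third. Of 7 endothelial markers 2 fell, of 7 smooth muscle and pericyte markers 1 rose and 3 fell, and the 6 tested leukocyte markers did not pass (edgeR adjusted p of 0.087 to 0.96). Of 5 tested atrial markers Pam and Dkk3 rose, Myl7, Myl4 and Sln fell, and the median log2 fold change was -0.95. Their summed level went the other way (649.8 to 698 CPM in WT against 1124 to 1413 in Mst1-TG), and most of it is Pam, at 530.7 ± 9.27 and 1147 ± 118.6 CPM. Myl7 was at 49.8 ± 6.38 and 24.5 ± 12.7 CPM, and Bmp10, a defining atrial gene, had 0 counts in all libraries. The part of these differences in the members' values was not tested. Library totals were 21193536 to 23809256, and mitochondrially encoded genes took 22.9% ± 1.11 of counts in WT and 13.6% ± 0.676 in Mst1-TG (SD, n = 4 each).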

How the data were processed

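RNA was taken from left ventricle, and 200 ng was depleted of ribosomal RNA and made into strand-keeping libraries, per the labels' protocols. Reads were handled with bcl2fastq 2.19.1.403 and kallisto 0.46.0, per the submitters' processing notes. Build, annotation and strand setting: not given in the sources used here. Overlapping genes may therefore share reads. The authors deposited estimated counts per gene, unscaled whole numbers that rounding left as they were. Positions and lengths came from GENCODE M21 (GRCm38), where all 10 versioned identifiers were found.

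Groups came from the sample titles. No label ties a library to its own animal, and the p-values cover only the spread among these libraries, which may be technical. Replicates differed beyond sampling noise (7.76 to 23.6 chi-square units per degree of freedom). The analysis used edgeR 4.0.16 under R 4.3.3, with filterByExpr (minimum count 10, minimum total 15), TMM factors (0.891 to 0.937 in WT, 1.08 to 1.13 in Mst1-TG), and the robust quasi-likelihood F test. SE is the log2 fold change over the root of F, and CPM uses the TMM-scaled totals. The biological coefficient of variation was 11.4%, and a log2 fold change had a median SE of 0.111. Counting intervals cover counting error only. Ratios within a library were compared by exact two-sided permutation tests in scipy 1.17.1. Alternatives were DESeq2 1.42.0, limma 3.58.1 (voom), other scalings, no filter, a replicate block and leaving out each library. The edgeR fit alone was also run on simulated counts with known changes balanced in both directions. That run does not test the scaling between groups, and its outcome is not reported here. The members and lists were chosen with earlier results of these data known. Named were all members, their paralogues, 8 fixed genes and up to 5 called genes of smallest p per list, with Stk4 and the 5 genes nearest to Sypl2 and to Ryr2, of which 1 is not reported here; others are named as markers.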

Additional observations from a re-analysis of the deposited data

Results flagged for a closer look

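Between libraries of 1 group, 2 of the 50 sets of 4 values examined held a value set apart from the other 3 by more than Dixon's 95% critical value, where chance gives about 1 in 20. The log2 ratio of Bin1 to Ryr2 counts was -6.09 in Mst1-TG 2, against -5.37 to -5.31 in the other Mst1-TG libraries. The log2 ratio of Atp2a2 to Ryr2 counts was 3.03 in WT 1, against 2.94 to 2.95 in the other WT libraries.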

How the results depend on the processing

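Sypl2, Ryr3, Jph2 and Tmem38a kept their direction and their call under every alternative, with log2 fold changes of 5.33 to 5.73, 2.28 to 2.77, -0.83 to -0.51 for Tmem38a and -0.77 to -0.43 for Jph2. Library totals only called 5 members higher; 7409 of all genes higher and 1592 lower; 28 pathway genes higher and 8 lower; 2 paralogues higher and 0 lower; 10 partners higher and 3 lower; 0 channel genes lower; 3 calcium removal genes higher; and 8 transverse tubule genes higher and 2 lower. It also turned Ryr2 (0.032), Trdn (0.233), Asph (0.223), Tmem38b (0.037), Itpr1 (0.171), Itpr2 (0.205), Itpr3 (0.264) and Cacna1c (0.061). Leaving out 1 library turned the sign of Trdn (range -0.146 to 0.023, the latter without WT 2), Sypl (-0.021 to 0.035), Itpr3 (-0.101 to 0.094) and the difference in the log2 ratio of Cacna1c to Ryr2 (-0.0303 to 0.0702), and gave 0 to 1 higher calcium removal genes. With 7 libraries no ratio can pass (smallest exact permutation p 0.0571), so 0 to 0 of the 9 passed. No label states that the replicate numbers pair the libraries. The correlation of same-numbered deviations was -0.142 to 0.0746, and no library correlated best with its own number. That shows no pairing but cannot exclude one. With the replicate block Ryr2 was called lower (-0.26, edgeR adjusted p = 0.031), and the other members kept their calls. The depth leaves Ryr1 at 0 to 13 counts per library, too few for the main test. Without the filter its difference was not called (edgeR adjusted p = 0.3), which leaves a change of Ryr1 undecided.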
